A study of Homo sapiens with 8 samples.

Results

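SETD1B guides are the 744 CRISPR guides in this pool that are aimed at the coding sequence of SETD1B, the closest paralog of SETD1A. They were taken as all guides whose name begins with KMT2G, a synonym of SETD1B in the RefSeq gene table, and they make up 12.4% of the 5995 guides counted. The pool, sgKMT2pool, was carried by KPL-1 cells, a human breast cancer cell line with a doxycycline-inducible Cas9 (iCas9). It was counted in 1 library at day 0, labelled wild type, and 1 library at day 14 of doxycycline, labelled as a knockout of functional domains. The same line gave RNA libraries at day 7 of doxycycline, 3 with an empty guide vector (sgEmpty, labelled WT) and 3 with a guide against SETD1A (sgSETD1A, labelled SETD1A knockout). The labels leave the origin of the replicates unsaid; p-values from the RNA libraries cover their spread alone, be it technical or between cultures.

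SETD1A and SETD1B are histone methyltransferases that add methyl groups to lysine 4 of histone H3. Each forms its own version of the COMPASS complex around shared subunits, with an RNA recognition motif near the N-terminus and the N-SET and catalytic SET domains at the C-terminus. In a tiling screen, guides are spread along a coding sequence. A cut is repaired with small insertions or deletions, of which some shift the reading frame and others change only a few residues, and cells in which the edit slows growth become rarer in the pool. According to the design text the tiling looked for functional domains of SETD1A, and SETD1B guides show how cuts along the paralog behaved in the same culture.

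The readout of each guide is its change, the log2 of CPM + 1 at day 14 divided by CPM + 1 at day 0 (CPM being reads scaled to a common library total), minus the median of the 200 guides whose names begin with HGLibA. Those names follow a genome-wide human guide library, and they are read here as non-targeting controls from background knowledge. All 744 SETD1B guides had at least the 30 reads at day 0 that were asked for, as did 5991 guides of the pool. SETD1B guides had between 118 and 6210 reads at day 0, with a median of 2078.5, and between 16 and 11965 reads at day 14, with a median of 2909.5. The median width of a guide's 95% counting interval was 0.16 log2, and the widest was 1.61. Counting intervals were formed from the reads without the added 1 CPM. A guide with few reads can therefore have a change near 1 end of its interval. Because each day has a single library, no guide or group of guides was tested and none carries a p-value. Intervals over guides describe the spread between guides of these libraries only, and all counting intervals leave out everything but counting error.

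SETD1B guides stayed close to the control guides, at a slightly lower level. Their median change was -0.25 log2 (exact 95% order-statistic interval -0.28 to -0.21 over 744 guides), which is 0.841 of the level of the median HGLibA guide. The middle of the distribution ran from -0.56 at the lower quartile to 0.018 at the upper quartile, and 547 guides (73.5%) were below the HGLibA median. This direction depended on the reference. With no reference subtracted, so that guides are scaled by library totals alone, the SETD1B median was 0.49 log2. That is 1.41 times the CPM of day 0, and 620 guides (83.3%) had a higher CPM at day 14 than at day 0. In the whole pool 56.4% of guides had a lower CPM at day 14. The median change of all guides, with the HGLibA median subtracted, was -0.92 log2.

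The shares of reads show the same from the side of the pool. SETD1B guides held 1586443 of 10145466 reads at day 0, or 15.6%, and 2324102 of 10255022 at day 14, or 22.7%. HGLibA guides went from 3.17% to 5.49% of reads, a larger relative gain. SETD1A guides went from 12.4% to 10.9%. The SETD1B share of reads was thus higher at day 14 while its gain was smaller than that of the HGLibA guides.

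A second kind of control stood below the SETD1B guides, with a wide spread. AAVS1 is an intronic site used as a safe harbour for integration; guides to it cut DNA, unlike non-targeting guides, and reading them as cutting controls is again background knowledge. The 5 AAVS1 guides had changes of -1.46, -1.30, -1.01, -0.74 and 0.18 log2. Their median was -1.01, so the SETD1B median was 0.77 log2 above it, and the highest AAVS1 guide lay above the upper quartile of the SETD1B guides. With 5 guides at 1 locus, spread over more than the difference itself, these values do not fix the level of a cut without a growth effect.

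Most SETD1B guides lay within 1 log2 of the HGLibA median, with a tail toward low values. Their standard deviation was 0.55 log2, wider than the 0.46 of HGLibA guides. Of the 744, 219 (29.4%; exact 95% interval 26.2% to 32.9%) had a change of -0.5 log2 or lower, a level that 65.3% of all guides in the pool reached and 29 of the 200 HGLibA guides (14.5%). At -1 log2 or lower were 57 SETD1B guides (7.66%; interval 5.85% to 9.81%), against a background of 46.7% of all guides and 4 of 200 HGLibA guides (2%; interval 0.548% to 5.04%). At -2 or lower were 10 (1.34%) and at -3 or lower 4 (0.538%), limits at which the share of all guides was not computed. On the other side, 19 guides had a change of 0.5 or higher (2.55%, background 2.57%) and 2 had 1 or higher (0.269%, background 0.351%). HGLibA guides spread further upward than SETD1B guides, with 21 of 200 at 0.5 or higher and 4 at 1 or higher.

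Judged by the spread of the controls, 52 SETD1B guides were low outliers and 1 was a high outlier. An outlier lies more than 3 scaled median absolute deviations of the HGLibA guides from their median, a limit of 1.04 log2. The low share was 6.99% (exact 95% interval 5.26% to 9.06%), where the whole pool had 45.2%, and the high share was 0.134%, where the pool had 0.284%. Among HGLibA guides themselves, 3 were low and 3 were high outliers (1.5% each). The guide nearest the low limit among the outliers had a change of -1.043 and the nearest that was not an outlier had -1.041, so the limit does not fall in a gap.

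SETD1A guides, read from the prefix KMT2F, were lower by about 1 log2. Their median was -1.23 log2 (interval -1.33 to -1.14 over 628 guides), and SETD1B exceeded it by 0.98 log2 (interval 0.86 to 1.12, formed from the limits of both medians). Of the SETD1A guides 375 (59.7%) were at -1 or lower, 121 at -2 or lower and 21 at -3 or lower, against 57, 10 and 4 for SETD1B. Guides to BOD1L1, a protein linked to the SETD1A complex, stood between the paralogs with a median of -0.64. The 25 guides to the essential genes PCNA, POLR2A, POLR2L, RPA3 and SF3B3 had a median of -3.63, and 24 of them were at -1 or lower. SETD1B thus had the highest median of the 5 tiled genes, since the KMT2C and KMT2D medians were -0.84 and -1.43.

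Guide names end in a number, taken here as the coding nucleotide because the numbers span a coding sequence of this length; the residues below all rest on this. SETD1B guides ran from number 57 (residue 19) to number 5897 (residue 1966), and the median distance between neighbouring guides was 4 nucleotides. The longest stretches with no guide were the 183 nucleotides between numbers 698 and 881 (residues 233 and 294) and the 177 between 2432 and 2609 (residues 811 and 870). Coverage was therefore thin there, with 20 guides in residues 201 to 300 and 16 in residues 801 to 900, against as many as 53 in residues 1601 to 1700.

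Along the protein the level was nearly even. The 20 windows of 100 residues had medians between -0.40 and -0.10 log2, a range of 0.29, and the interval of each of the 20 held the SETD1B median. In 16 windows the interval lay below the HGLibA median and in 4 it held it. Windows of SETD1A ranged over 1.44 log2. The lowest was -1.69 at residues 1 to 100 (interval -2.18 to -1.35). The highest was -0.26 at residues 1301 to 1400 (interval -1.17 to 0.021). Of the 18 SETD1A windows, 14 had an interval that held the SETD1A median. The standard deviation of window medians was 0.089 for SETD1B and 0.32 for SETD1A. Single guides also spread less for SETD1B, with a standard deviation of 0.55 against 0.91 for SETD1A.

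The lowest windows lay in different parts of SETD1B. Residues 201 to 300 had a median of -0.40 (20 guides; interval -0.59 to -0.054), with no guide at -1 or lower. Residues 601 to 700 had -0.38 (33 guides; interval -0.68 to -0.20), and residues 1701 to 1800 had -0.36 (31 guides; interval -0.52 to -0.20). The 3 highest windows were residues 1201 to 1300 at -0.10, residues 301 to 400 at -0.13 and residues 1501 to 1600 at -0.13. The intervals of the lowest and the highest windows overlapped. The N-terminal end, where the RNA recognition motif lies, had medians of -0.29 at residues 1 to 100 (40 guides) and -0.31 at residues 101 to 200 (33 guides).

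The guides at -1 or lower were scattered as well, with more of them in some windows. They fell in 18 of the 20 windows. Residues 701 to 800 held 9 among 42 guides (21.4%), residues 601 to 700 held 5 among 33 (15.2%), and residues 1 to 100 held 6 among 40 (15.0%). Residues 201 to 300 and 801 to 900 held none. The median of residues 701 to 800 was -0.30, and its highest guide reached 1.04. Within that window the guides numbered 2219, 2223, 2241, 2242, 2243 and 2244 (residues 740 to 748) followed each other at -3.10, -0.77, -1.08, -1.01, -0.60 and -0.999. This run was picked out after its values were seen. By larger sections, 18 of 247 guides up to residue 650 were at -1 or lower (7.29%), 21 of 213 in residues 651 to 1300 (9.86%) and 18 of 284 beyond (6.34%), with overlapping exact intervals.

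The C-terminal part, from residue 1651 to the end, holds the N-SET and SET domains and differed little from the rest. Its 111 guides had a median of -0.32 log2 (interval -0.46 to -0.19), and the other 633 had -0.24 (interval -0.28 to -0.20). The difference was -0.081 log2 (interval -0.26 to 0.084), which holds 0. Of the C-terminal guides 9 (8.11%; exact interval 3.77% to 14.8%) were at -1 or lower, against 48 (7.58%; interval 5.64% to 9.93%) of the rest. At -0.5 or lower were 38 (34.2%) and 181 (28.6%), and 8 and 44 were low outliers. Starting the part at residue 1801 turned the difference to 0.025 log2 (interval -0.28 to 0.16). From there on 7 of 59 guides (11.9%) were at -1 or lower, against 2 of 52 (3.85%) in residues 1651 to 1800. The exact intervals of these shares overlapped. On either side of its start, guide 4948 (residue 1650) had a change of -0.51 and guide 4954 (residue 1652) of -1.40.

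The same part of SETD1A, matched by its distance to the last guide, was also close to the rest of its gene but at a far lower level. The 119 SETD1A guides from residue 1393 on had a median of -1.28 log2, and the other 509 had -1.22, a difference of -0.059 (interval -0.34 to 0.26). Between the C-terminal parts SETD1B was 0.96 log2 above SETD1A (interval 0.60 to 1.27). Of these SETD1A guides 75 (63.0%) were at -1 or lower, against the 9 of SETD1B.

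In windows of 50 residues, 1 short stretch near the C-terminal end stood lowest. Residues 1901 to 1950 had a median of -0.78 log2, the lowest of the 40 windows, from 13 guides. The interval of this median, -0.92 to -0.12, held the SETD1B median of -0.25. Residues 1851 to 1900 had -0.46 from 22 guides. Both windows fall toward the end of the protein, where the SET domain lies. Guides to residues 1907, 1911, 1912, 1917 and 1918 had changes of -0.85, -0.78, -0.92, -0.97 and -1.84, and the 3 guides to residue 1947 had -0.92, -0.78 and -0.58. The other 5 guides of this window were higher, at -0.36 for residue 1914, -0.20 for residue 1916, -0.12 for residue 1936, 0.61 for residue 1942 and 0.16 for residue 1948, so low and higher guides were mixed.

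In residues 1851 to 1900, 5 of 22 guides were at -1 or lower. Residues 51 to 100 had 6 of 22 that low, and residues 701 to 750 had 5 of 17. The lowest of residues 1851 to 1900 was guide 5674 (residue 1892) at -2.20, with 1943 reads at day 0 and 710 at day 14. The others at -1 or lower there were guides 5567, 5579, 5602 and 5649, between -1.17 and -1.003. Guide 5566, which differs from guide 5567 by 1 in its number, had a change of 0.40. Over residues 1851 to 1950, a stretch put together after the values were seen, 17 of 35 guides were at -0.5 or lower. After it, residues 1951 to the end had a median of -0.098 from 11 guides, and residues 1801 to 1850 before it had -0.13 from 13. Windows outside the C-terminal part came near these values: residues 601 to 650 had -0.68 (15 guides), residues 701 to 750 had -0.60 (17 guides), and the highest window, residues 1551 to 1600, had 0.016 (23 guides). All of the windows of 50 residues named with fewer than 20 guides rest on few values.

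The single guides with the lowest changes came from across the protein. Guide 1831 (residue 611) had 1129 reads at day 0 and 112 at day 14, a change of -3.98 log2 (95% counting interval -4.38 to -3.81), or 15.7 times lower relative to the HGLibA median. Guide 4596 (residue 1532) had 380 and 36 reads, a change of -3.83 (interval -4.69 to -3.66). Guide 5179 (residue 1727), in the C-terminal part, had 127 and 16 reads, a change of -3.14 (interval -4.60 to -2.99). Guide 2219 (residue 740) had 2011 and 389 reads, a change of -3.10 (interval -3.29 to -2.97). No other SETD1B guide was at -3 or lower. With a pseudocount of 10 CPM these 4 changes were -3.24, -2.52, -1.67 and -2.82, so guide 1831 alone stayed at -3 or lower.

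The next guides were less extreme. Guide 557 (residue 186) had 401 reads at day 0 and 100 at day 14 (-2.66 log2), and guide 3271 (residue 1091) had 1095 and 301 (-2.59). Guide 2319 (residue 773) had 118 and 34 reads, the fewest of any SETD1B guide at day 0, and a change of -2.29 with an interval of -3.15 to -1.99. Guides 5674 (-2.20, described above), 1993 (residue 665; -2.19, 756 and 273 reads) and 2183 (residue 728; -2.03, 2419 and 997 reads) completed the 10 lowest. Of the 10, 5 fell between residues 611 and 773, limits drawn around these guides after their values were seen. Residues 601 to 800 held 75 of the 744 SETD1B guides.

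Neighbours of guides 1831, 4596 and 5179 did not share their level. Guide 1829, 2 nucleotides before guide 1831, had 4669 and 6888 reads and a change of -0.20, and guide 1846 after it had -0.68. Guides 4595 and 4597, on either side of guide 4596 by 1 nucleotide, had -0.092 and 0.15. Guides 5168 and 5183, around guide 5179, had -0.32 and -0.10. Each of these 6 neighbours lay above -1, as most SETD1B guides did. The extreme values of guides 1831, 4596 and 5179 were thus not shared by the guides beside them. Guide 2219, at -3.10, had guide 2205 before it at -0.27 and guide 2223 after it at -0.77. Guides 2241, 2242, 2243 and 2244, further on, had -1.08, -1.01, -0.60 and -0.999. These guides near guide 2219 were named after their values were seen.

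Over all SETD1B guides likeness between neighbours was weak. Across the 743 pairs of neighbouring guides the changes were almost uncorrelated (Pearson r = 0.046, Spearman rho = 0.060, as a description across guides of the same 2 libraries), and SETD1A gave r = 0.11 over 627 pairs. The median absolute difference was 0.40 log2 between neighbours and 0.43 between all pairs of SETD1B guides. The 2 guides beside each of the 57 guides at -1 or lower gave 114 neighbours, in which some guides count more than once. Of these neighbours 14 (12.3%) were themselves that low, against 7.66% of all SETD1B guides. The median of the 114 was -0.28, and 12 of the 57 guides had a neighbour that low.

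Pairs of guides with the same number, which the files do not tell apart further, differed as much. There were 28 such pairs, with a median absolute difference of 0.52 log2. At number 4167 (residue 1389) 1 guide had a change of -1.31 and the other -0.049, and at number 1906 (residue 636) the values were -1.48 and -0.28. In 4 pairs 1 guide was at -1 or lower and in none were both. In 12 pairs both guides lay within 0.5 log2 of the HGLibA median.

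The highest guides changed less than the lowest. Guide 1245 (residue 415) had 177 reads at day 0 and 754 at day 14, a change of 1.27 log2 (interval 1.10 to 1.58), and was the only high outlier. That call was lost with a pseudocount of 10 CPM, where its change was 0.90, and with a minimum of 200 reads at day 0, which leaves the guide out. Guide 2335 (residue 779) had 985 and 3439 reads, a change of 1.04 (interval 0.94 to 1.15). Guide 5023 (residue 1675), the highest of the C-terminal part, had 2230 and 6669 reads, a change of 0.82. The other 7 of the 10 highest, guides 2166, 3766, 611, 5896, 58, 4166 and 3093, had changes between 0.76 and 0.64. Their neighbours were again near or below the controls: guides 1235 and 1249 around guide 1245 had -0.082 and -0.92, guides 2330 and 2346 around guide 2335 had -0.30 and -0.18, and guides 5018 and 5041 around guide 5023 had -0.13 and -0.32.

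Guides at the very end of the coding sequence were at or above the level of the rest. The 2 guides numbered 5896 and the guide numbered 5897, all at residue 1966, had changes of 0.65, -0.14 and -0.14. At the other end, guide 57 (residue 19) had 0.10, and the 2 guides numbered 58 had -0.26 and 0.65. Guide 5888 (residue 1963) was the only guide beyond residue 1950 at -1 or lower, with 788 and 626 reads and a change of -1.08.

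Reads at day 0 moved with the tail of low guides. The 57 guides at -1 or lower had a median of 1601 reads at day 0, and the other 687 had 2116. In 4 groups of 186 guides ordered by day 0 reads, 22, 18, 9 and 8 guides were at -1 or lower, from the group with fewest reads to that with most, and the spread between guides (SD) was 0.74, 0.54, 0.45 and 0.37 log2. The medians of the 4 groups were closer, at -0.29, -0.32, -0.23 and -0.20. HGLibA guides in the same ranges of reads had SDs of 0.56, 0.40, 0.32 and 0.18 with medians between -0.016 and 0.029. Day 0 reads are also the denominator of the change, and their part in the tail was not tested. By counting error alone, the intervals of 491 SETD1B guides lay below the HGLibA median, those of 155 above it, and 98 held it. Those of 41 lay below -1. The same count was not made for HGLibA guides or for the whole pool. HGLibA guides had an SD of 0.46 log2, beside a median interval width of 0.16 for SETD1B guides. These counts therefore do not set SETD1B guides apart from the controls.

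The position of the number within a codon made little difference. Guides whose number left a remainder of 0, 1 or 2 on division by 3 had medians of -0.23, -0.21 and -0.28 log2 (207, 306 and 231 guides), with overlapping intervals. Of them 15, 25 and 17 were at -1 or lower.

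The SETD1B transcript was present in these cells at a level close to that of SETD1A in control cells. TPM values, transcript levels scaled by length and library total, were 16.1, 16.1 and 17.1 for SETD1B in the sgEmpty libraries and 16.8, 17.2 and 17.1 in the sgSETD1A libraries. The groups overlapped. The difference, sgSETD1A minus sgEmpty, was 0.048 on the log2(TPM + 1) scale (SE 0.052; limma adjusted p = 0.490), beside a median of 0.073 over all 11885 tested genes, and median-ratio rescaling turned it to -0.022. SETD1A, the target of the guide, had 17.5, 17.5 and 18.1 TPM in sgEmpty and 9.36, 11.3 and 10.7 TPM in sgSETD1A, with no overlap, and a difference of -0.71 log2 (limma adjusted p = 9.13e-05). How many alleles were edited was not analysed here, in these libraries or for any SETD1B guide.

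Of 11 genes that encode SETD1A, SETD1B and proteins of their complexes, 3 rose, 3 fell and 5 did not pass in sgSETD1A libraries, where 28.0% of all tested genes were called higher and 13.5% lower (15.5% and 19.2% after median-ratio rescaling). The list's median was 0.048 log2. RBBP5, a shared core subunit, rose by 0.24 log2, WDR82, found in SETD1 complexes, by 0.13 and the core subunit WDR5 by 0.13, and neither WDR82 nor WDR5 was called after median-ratio rescaling. HCFC1, a bound cofactor, fell by 0.19 log2, and BOD1 by 0.12. The calls of RBBP5, HCFC1 and SETD1A held without any 1 library. WDR82 lost its call without sgSETD1A replicate 1 or 3 or any sgEmpty library, BOD1 without sgEmpty replicate 2 or 3 or sgSETD1A replicate 2 or 3, and WDR5 without any library but sgSETD1A replicate 1, whose removal added CXXC1.

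The cells carried the markers of luminal breast epithelium. All 7 listed luminal markers, which include ESR1, GATA3 and KRT8, had a mean of at least 1 TPM, with a summed level of 12258 to 13219 TPM in sgEmpty and 14056 to 14446 TPM in sgSETD1A libraries. None of 3 basal, 3 immune or 3 endothelial markers reached a mean of 1 TPM over the 6 RNA libraries, with sums up to 1.31, 0.424 and 0.133 TPM, and KRT5 was listed at 0. Of 3 fibroblast markers, COL1A1 did, and their sum was at most 4.16 TPM. In these bulk libraries fewer cells of a type and less RNA per cell cannot be told apart.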

How the data were processed

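The guide file, deposited by the authors, holds unnormalized read counts, 1 column per day; the sources used here do not give how guides were amplified and matched. A row of column totals, equal to the sum of the guides (all of the reads), was left out. Changes were computed in Python 3.11.15 with numpy 2.4.6, scipy 1.17.1 and pandas 2.3.3, with a pseudocount of 1 CPM, where day 0 had 30 reads or more; scaling used each library's total. Medians have exact 95% order-statistic intervals over guides, shares and single guides exact Clopper-Pearson intervals (conditional on the summed reads of both days). No sequence alignment of the paralogs was made, so the C-terminal part of SETD1A was set at the same 946 nucleotides before its last guide. On 5995 simulated guides with counting noise only, medians of tiled genes were recovered within 0.020 log2 and those of targets with 5 guides within 0.15; real medians are less certain.

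The expression table held TPM values deposited by the authors for 19035 genes; a last row without a gene name, the column total of 1000000, was left out. Per the submitters' processing notes the tools were RSEM 1.3.1, STAR 2.6.0c and bcl2fastq 2.20.0, and the build hg19. TPM keeps no depth, so it is unknown. Genes with a mean of at least 1 TPM were compared with limma 3.58.1 (R 4.3.3, mean-variance trend) on log2(TPM + 1), adjusted by Benjamini-Hochberg over all tested genes, with calls at an adjusted p under 0.05. The symbol BOD1L was matched to BOD1L1 through RefSeq.

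Members and lists were chosen with earlier results of these data known. Named guides were the 10 lowest and 10 highest, the 3 lowest and highest of the C-terminal part, those beside its start, and the neighbours of the 3 lowest and highest; guides of residues 1851 to 1966 and of pairs with 1 number were named after their values were seen. Named windows were the 3 lowest and 3 highest, and others were named after their values were seen. A few control guides and 1 marker gene are not reported here.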

Additional observations from a re-analysis of the deposited data

How the results depend on the processing

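The SETD1B median kept its direction and stayed within its interval with a pseudocount of 0.1 or 10 CPM, with no minimum or a minimum of 200 reads at day 0 and without guides that share a name (-0.25 to -0.23 log2), and was 0.49 with no subtraction and 0.77 against the 5 AAVS1 guides, an alternative chosen after seeing the data. With no subtraction 15 guides were at -1 or lower and 77 at 1 or higher; against AAVS1 guides the counts were 10 and 205, and 9 and 182 guides were low and high outliers. At a fold of 0.5 log2 the counts were 219 and 19. At 4 scaled deviations 25 guides were low and 0 high outliers. The share of all guides in the pool was not computed for these other references or for 4 deviations. Another reference shifts every guide of the pool alike, so the counts under it are not a result about SETD1B guides. A pseudocount of 10 CPM left 0 guides at 1 or higher and 0 high outliers, and a minimum of 200 reads left 1 and 0. The C-terminal part minus the rest was -0.047 from residue 1601, -0.072 from 1701 and 0.025 from 1801. The difference from SETD1A ran from 0.93 to 0.98 over all guides under these settings. The lowest window was -0.78 at 50 residues (13 guides), -0.33 at 200 and unchanged without guides under 500 reads, also chosen later.

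With no subtraction all named guides shifted by the same 0.74 log2, and 11 of 36 changed sign: guides 4948 (0.24), 1829 (0.54), 1846 (0.062), 4595 (0.65), 5168 (0.42), 5183 (0.64), 1235 (0.66), 2330 (0.44), 2346 (0.56), 5018 (0.61) and 5041 (0.42). With a pseudocount of 10 CPM, 12 of 36 left their counting interval, and 8 of the 10 lowest guides were shared, as with a minimum of 200 reads.

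SETD1B's transcript difference was 0.034 to 0.073 log2 without 1 library each and -0.022 after median-ratio rescaling, and was never called. With the replicate number as a block its adjusted p in limma was 0.549, with the same 0.048 log2, and the block called 1 listed complex gene higher and 2 lower, against 3 and 3. Deviations of same-numbered libraries correlated at 0.085, -0.10 and 0.17, and those of differently numbered libraries between -0.21 and 0.14. With 3 libraries per group these values cannot tell whether same-numbered libraries were paired. The planned protein alignment of windows with SETD1A was not run. Depth limits single guides with few reads, such as guide 2319.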
